A study of Oryzias latipes with 18 samples.

Results

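The medaka (Oryzias latipes) genome holds 7 genes that the study's list of transcription factors (TFs) placed in the DM family, beside 1639 TF genes of other families. The accessible chromatin around these 7 genes is described here. An accessible element was assigned to a gene when its midpoint lay inside the gene or within 50 kb of its transcription start site (TSS). By this rule 104 different elements, of 149539 in the genome, lay around the DM genes.

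The elements came from ATAC-seq, in which the Tn5 transposase cuts and tags DNA that is not covered by nucleosomes. Whole embryos, freed of chorion and yolk, were profiled at 9 stages of development (11, 15, 19, 25, 29, 32, 36, 38 and 40) with 2 replicates per stage, which gave 18 libraries. All of them were offspring of d-rR-Tg(olvas-GFP), a line with a fluorescent reporter of germ cells, and Qurt, and no stage was treated. The labels gave neither the sex of the embryos nor the number pooled per library. The authors merged the peaks of all stages into 1 list, so each element has a single value for the whole of development, no spread between replicates can be given, and every comparison below is a description without a test. An element is given by its position, by its score (the −log10 of a q value as read here, always above 7) and by the number of peaks merged into it, which ranged from 1 to 29. An element merged from 9 peaks has as many peaks as there were stages, but the list does not say which stages those peaks came from. In an embryo with many cell types, accessibility in few cells and weak accessibility in many cells cannot be told apart.

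DM proteins bind DNA through an intertwined zinc finger module first described in the fly protein doublesex and the worm protein MAB-3, both regulators of sexual differentiation. In vertebrates the family includes dmrt1, a gene required for testis development, but several of its members act mainly outside the gonad, in the somites, the spinal cord and the forebrain. Names were given for 4 of the 7 genes, and these belong to that second group. dmrt2a takes part in the symmetric formation of somites in zebrafish, dmrt3 specifies interneurons of the spinal locomotor circuit in mouse, and dmrta1 and dmrta2 are expressed in the developing telencephalon of mouse, where Dmrta2 patterns the cerebral cortex. The remaining 3, IGDB09824, IGDB07799 and IGDB10294, carried only an identifier and are left unnamed, so whether dmrt1 is among them was not determined. Since the list holds neither expression values nor sex, a role of any of these genes in the gonad could not be examined. None of the 6 genes placed on a chromosome lay on chromosome 1, the sex chromosome of medaka. IGDB10294 was on a scaffold whose chromosome is not given, so these places do not show that the sex chromosome lacks a DM gene.

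The 7 genes stood at 5 places in the genome. A cluster of 3 lay on chromosome 9, all on the reverse strand: dmrt2a (1154532 to 1163506), dmrt3a (1173088 to 1176083) and IGDB09824 (1179951 to 1213369). On chromosome 4, dmrta2 (31230621 to 31233099, reverse strand) and IGDB07799 (16778965 to 16786308, forward strand) were far apart. dmrta1 lay on the forward strand of chromosome 18 (8179204 to 8181815), and IGDB10294 on the forward strand of the scaffold 000829F (22422 to 59598). Their lengths differed widely: dmrta2 spanned 2.48 kb, dmrta1 2.61 kb and dmrt3a 3.0 kb, whereas IGDB09824 spanned 33.4 kb and IGDB10294 37.2 kb. The median length of the DM genes was 7.34 kb, against 8.23 kb over all TF genes.

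The number of elements around a DM gene ranged from 5 to 39, with a median of 22. Over all TF genes the median was 25, with quartiles of 17 and 33. IGDB09824 had 39 elements and stood at the 87.4th percentile of TF genes, the only DM gene above the upper quartile. dmrta2 with 25, dmrt3a with 24 and dmrt2a with 22 lay near the middle, at the 49.4th, 45.3rd and 37.9th percentile. IGDB07799 with 15 and dmrta1 with 14 lay below the lower quartile. IGDB10294 had 5, but its scaffold holds only 22.4 kb of sequence before the TSS and 10 elements in all, so its window was cut short.

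**Figure D1:**
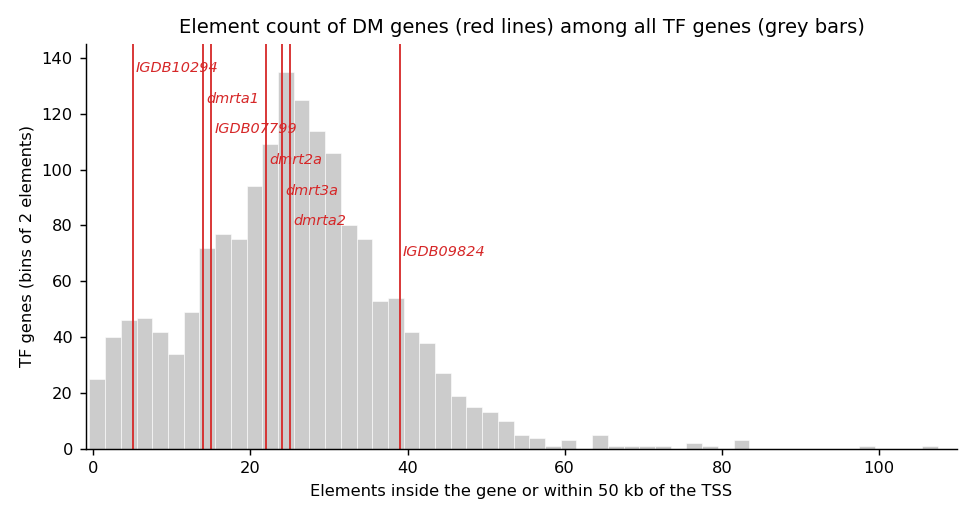
Number of accessible elements inside the gene or within 50 kb of the TSS (x axis) for all TF genes (grey bars, number of genes per bin of 2 elements), with the 7 DM genes as red lines. The DM genes run from 5 elements (IGDB10294) to 39 (IGDB09824), and 6 of them lie at or below 25, the median of TF genes.

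Within 50 kb, elements were slightly fewer than around TF genes as a whole at most distances. With a window of 100 kb the order turned, with a median of 52 elements per DM gene against 47. The 3 chromosome 9 genes, whose windows overlap, then had 59, 58 and 57 elements. dmrta2 had 52, dmrta1 41, IGDB07799 24 and IGDB10294 10. With 50 kb and elements of at least the median score alone, both medians were 13. Within 1 kb of the TSS a DM gene had a mean of 1.0 element, and an average TF gene had 1.41. Between 1 and 5 kb the means were 2.29 and 2.08, the single interval in which DM genes had more. From 5 to 10 kb they were 2.0 and 2.5, from 10 to 25 kb 5.71 and 7.18, and from 25 to 50 kb 9.57 and 11.3. Of the 144 pairs of a DM gene and an element, 80 were upstream of the TSS (55.6%), against 48.2% over all TF genes. The direction differed by gene. Upstream lay 15 of 22 at dmrt2a, 14 of 24 at dmrt3a, 23 of 39 at IGDB09824 and 18 of 25 at dmrta2. At IGDB07799 it was 4 of 15, at dmrta1 5 of 14 and at IGDB10294 1 of 5. The windows on chromosome 9 overlap, so many of these elements were counted for several genes. Of the 104 different elements, 80 fell in 1 window, 8 in 2 and 16 in 3. The means of DM genes include IGDB10294, whose window was cut short by its scaffold. With 7 genes, and with the windows of 3 of them shared, these differences in means carry no error estimate.

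**Figure D2:**
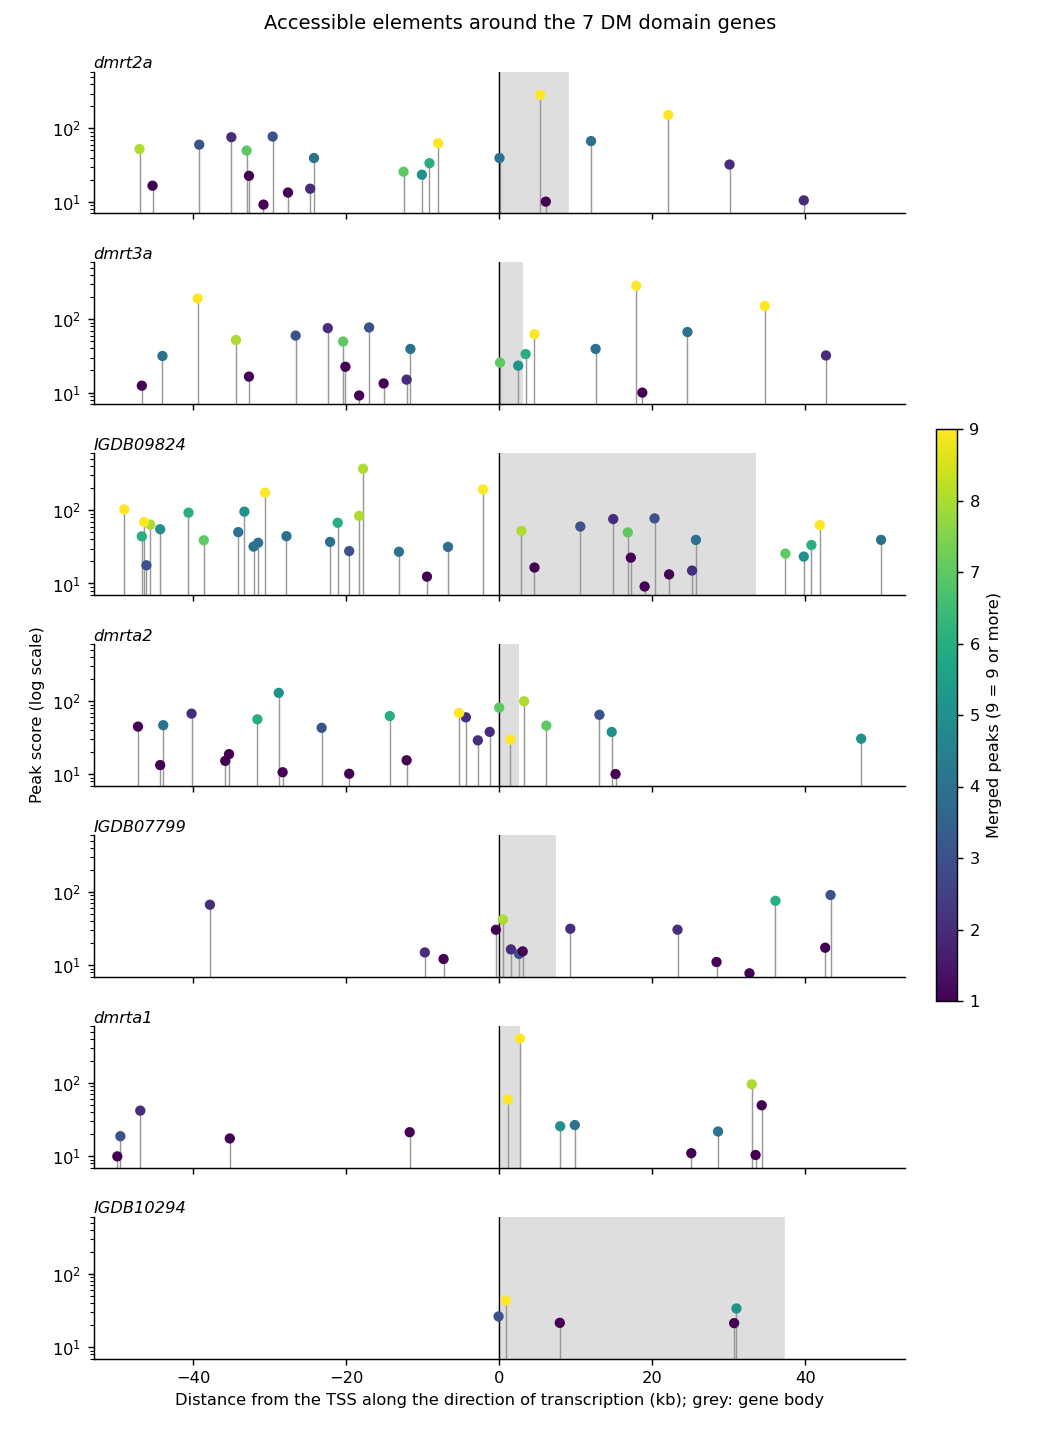
Every element around the 7 DM genes, by distance of its midpoint from the TSS along the direction of transcription (x axis, kb) and by its score (y axis, log scale), coloured by the number of merged peaks. Grey marks the gene body. The 3 genes dmrt2a, dmrt3a and IGDB09824 share many elements, and the highest score, 406, stands just past the 3′ end of dmrta1.

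At the TSS itself, as placed by the study's gene models, accessible elements were mostly present but had low scores. An element lay within 1 kb of the TSS in 5 of the 7 DM genes, beside 84.1% of all TF genes. It covered the TSS base in 4, dmrt2a, dmrt3a, dmrta2 and IGDB10294, beside 63.4% of TF genes. An element merged from 9 or more peaks lay within 1 kb in 1 of 7, IGDB10294, beside 48.6% of TF genes. That count was 0 within 500 bp, 3 within 2 kb and 2 with the RefSeq gene ends described below, limits chosen after seeing the data, beside 43.4%, 52.4% and 48.0% of TF genes. With only 7 genes, 1 gene is 14.3% of the family. Among the 1384 TF genes with an element there, the strongest one had a median score of 117, with quartiles of 50.9 and 244. All 5 DM genes were below that median, and 4 of them were below the lower quartile.

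The element over the TSS of dmrta2 was the strongest of these. It spanned 31232974 to 31233232 on chromosome 4, had a score of 81.8 and was merged from 7 peaks, and its midpoint was 0.004 kb from the TSS. The element over the TSS of dmrt2a (1163339 to 1163594 on chromosome 9) had a score of 39.4 and 4 peaks. The one at dmrt3a (1175697 to 1176247) was broad at 551 bp and had 7 peaks, yet its score of 25.6 was the lowest of the 5 genes, at the 10.5th percentile of TF genes. Thus the 2 TSSs of the chromosome 9 cluster with an element had scores below that of dmrta2.

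Both other genes had a pair of elements near the TSS. At IGDB07799 a narrow element of 115 bp (16778476 to 16778590), 0.432 kb upstream, had a score of 30.6 and came from a single peak. A second one of 742 bp (16779073 to 16779814), 0.478 kb downstream and inside the gene, had a score of 42.2 and 8 peaks, the most of any element around this gene. At IGDB10294 the element next to the TSS (22247 to 22429) had a score of 26.3 and 3 peaks. The second one (23209 to 23369), 0.867 kb into the gene, had a score of 43.4 and 9 peaks. At both genes the element with more peaks and the higher score therefore lay downstream of the annotated TSS.

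**Figure D3:**
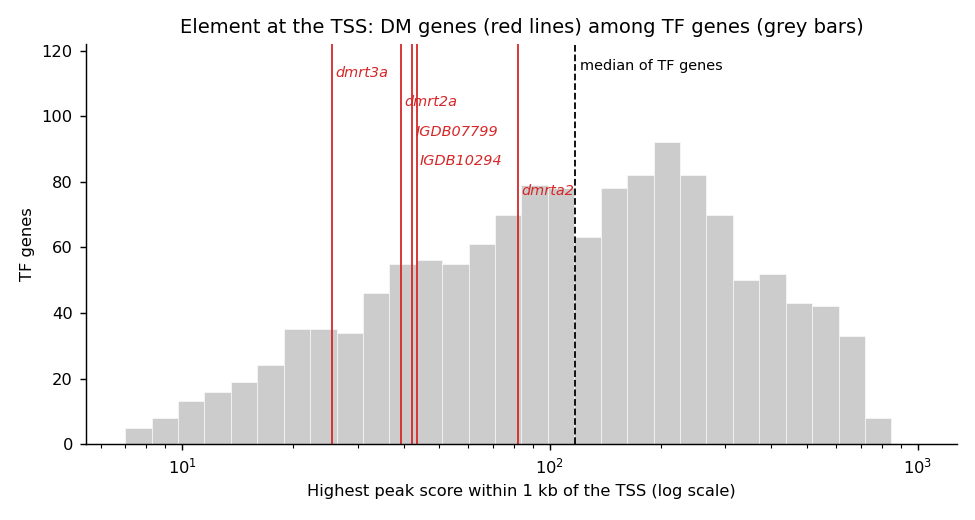
Score of the strongest element within 1 kb of the TSS (x axis, log scale) for the 1384 TF genes that had one (grey bars, number of genes). Red lines mark the 5 DM genes with such an element, at 25.6 (dmrt3a), 39.4 (dmrt2a), 42.2 (IGDB07799), 43.4 (IGDB10294) and 81.8 (dmrta2), all left of the dashed median of 117.

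dmrta1 and IGDB09824 had no element within 1 kb of the TSS. For dmrta1 the nearest one (8180175 to 8180499 on chromosome 18) lay 1.13 kb downstream, inside the gene, with a score of 59.5 and 9 peaks. For IGDB09824 the nearest one (1215394 to 1215601 on chromosome 9) lay 2.13 kb upstream, with a score of 193 and 9 peaks. Both were stronger than the TSS elements of dmrt2a, dmrt3a, IGDB07799 and IGDB10294.

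The position of the TSS depends on the gene model. RefSeq has a matching gene for 6 of the 7 DM genes, all but IGDB10294, and its 5′ end was further upstream in each. The shift was 0.155 kb for dmrt2a, 0.368 kb for dmrt3a, 0.487 kb for IGDB07799, 1.05 kb for dmrta1, 1.26 kb for dmrta2 and 2.17 kb for IGDB09824. For IGDB09824, matched to LOC101161472, the RefSeq end at 1215534 fell within the element of score 193. That score is above the median of 117 for TF genes, which was taken at the TSSs of the study. For IGDB07799, matched to LOC101156565, the RefSeq end at 16778478 fell within the narrow element of score 30.6. For dmrta2 the RefSeq end at 31234358 fell within a further element (31234235 to 31234443, score 38.1, 2 peaks), weaker than the one over the first TSS. For dmrta1 the RefSeq end at 8178157 was 2.18 kb from the nearest element. With RefSeq ends, and the first TSS for IGDB10294, 6 of 7 DM genes had an element within 1 kb, beside 84.8% of TF genes, and dmrta1 alone had none. The element of score 193 also lay within LOC110014730, a lncRNA gene that overlaps the 5′ end of LOC101161472, and it cannot be assigned to either.

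The windows of the chromosome 9 cluster held 45 of the 104 elements. From the start of dmrt2a to the end of IGDB09824 the cluster spanned 58.8 kb, with 18 elements. dmrt2a and dmrt3a were 9.58 kb apart with 2 elements between them. One (1171418 to 1171528), 7.97 kb upstream of the dmrt2a TSS, had a score of 62.8 and 9 peaks in only 111 bp, and the other (1172551 to 1172685) had a score of 33.5 and 6 peaks. The 3.87 kb between dmrt3a and IGDB09824 held no element. Within IGDB09824, as the study's model places it, 11 elements had scores from 9.1 to 77.5, and none of them was merged from 9 peaks.

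The strong elements of this region lay on both sides of that gene body, as the study's model places it. By the RefSeq model the element of score 193 lay inside the gene, at its 5′ end. The strongest one in the dmrt2a window was inside dmrt2a, 5.37 kb downstream of its TSS (1157990 to 1158288), with a score of 288 and 9 peaks, which put it at the 97.1st percentile of all elements. The element over the TSS of the same gene, with its score of 39.4, stood at the 58.8th percentile. Further downstream, 22.1 kb from the TSS and past the 3′ end, a broad element of 1151 bp (1140787 to 1141937) was merged from 12 peaks, the most around any DM gene, and had a score of 153. It was the only one of the 104 with more than 9 peaks. Both elements were also in the window of dmrt3a, where they were 17.9 and 34.7 kb from the TSS.

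On the other side, upstream of IGDB09824, 21 of its 39 elements had kank1 as the closest RefSeq gene (53.8%), and 20 of these were inside it. kank1 encodes a regulator of the actin cytoskeleton and lies from 1219500 to 1259773. The strongest element in the windows of these 3 genes was among them, 17.8 kb upstream of the IGDB09824 TSS (1230960 to 1231415), with a score of 370 and 8 peaks. A second one, 30.6 kb upstream (1243826 to 1244165), had a score of 174 and 9 peaks. The gene with the highest count of the family thus shared its window with kank1, and 12 of its 39 elements (30.8%) were closest to its own RefSeq gene. Counted per Mb within 50 kb of the TSS, IGDB09824 had 390 elements, dmrt3a 240 and dmrt2a 220, and chromosome 9 as a whole had 215.

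**Figure D4:**
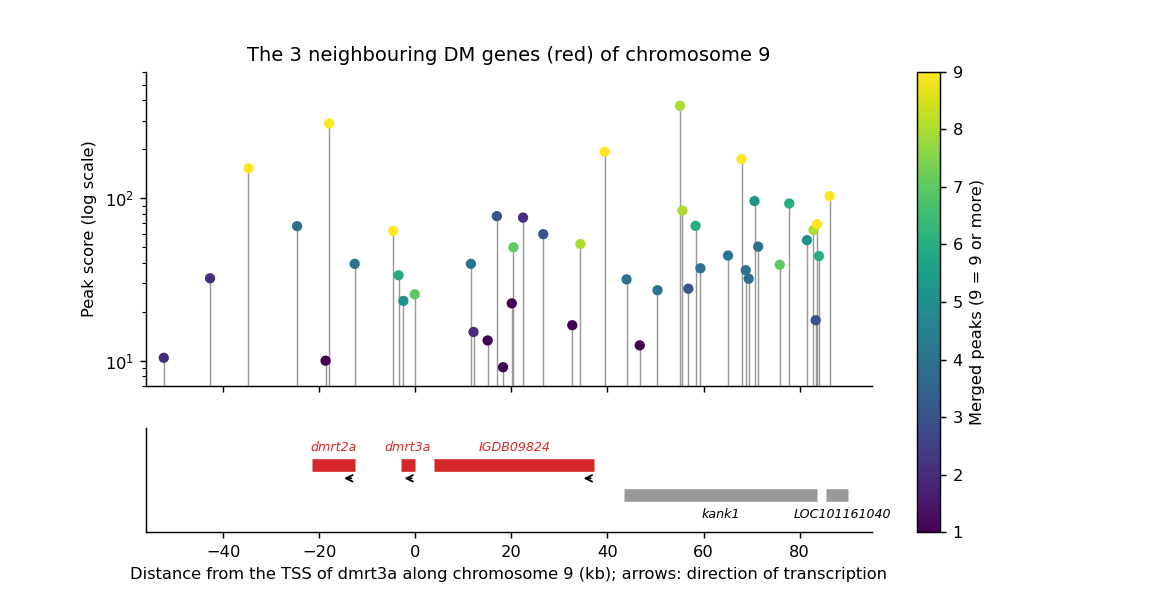
Elements (points, score on a log scale, coloured by merged peaks) along chromosome 9 around dmrt2a, dmrt3a and IGDB09824 (red), with the neighbours kank1 and LOC101161040 (grey), as distance from the dmrt3a TSS (kb). Scores of 288 and 153 stand at the dmrt2a side. Scores of 193, 370 and 174 stand beyond the 5′ end of IGDB09824 as the study's model places it. The 11 elements inside that model stay at or below 77.5.

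dmrta2 had 8 of its 25 elements within 10 kb of the TSS, and 2 of these were merged from 9 peaks. One (31231323 to 31231927, 605 bp) lay inside the short gene with a score of only 29.9, and the other (31238092 to 31238586) lay 5.24 kb upstream with a score of 69.0. Another element, 3.25 kb downstream of the TSS and 0.757 kb past the gene (31229736 to 31229967), had a score of 100 and 8 peaks. Farther upstream, 13 of the 25 elements lay in faf1 (52.0%), which encodes a protein that binds ubiquitylated proteins. The strongest element of the window was one of them, 28.8 kb upstream (31261775 to 31262118), with a score of 130 and 5 peaks. On the downstream side the midpoints of neighbouring elements were 32.1 kb apart, the widest spacing around any DM gene. The strongest score of dmrta2 was at the 12.3rd percentile of TF genes, although its median score of 43.3 was at the 74.6th.

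IGDB07799, on the same chromosome, had the lowest median score of the family. This score, 17.4, stood at the 3.21st percentile of TF genes, and none of its 15 elements was merged from 9 or more peaks. The 3 elements in the gene body past the one near the TSS had scores from 14.3 to 16.5. Its strongest element was 43.3 kb downstream (16822096 to 16822466), with a score of 91.3 and 3 peaks, and was closest to fam183a. A further one, 36.1 kb downstream (16814816 to 16815350), had a score of 76.2 and 6 peaks. Of the 6 genes with a RefSeq model, this was the one for which most elements, 9 of 15 (60.0%), were closest to its own RefSeq gene. Its window had 150 elements per Mb, against 213 over chromosome 4 and 250 in the window of dmrta2.

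dmrta1 combined few elements with the single strongest one of the family. That element (8181823 to 8182007, 185 bp) had a score of 406 and 9 peaks, at the 98.7th percentile of all elements. It lay 2.71 kb downstream of the TSS, directly past the annotated 3′ end of the gene, and it overlapped the near end of LOC101164594, a neighbour of 191706 bp that begins at 8181953. Which of the genes it belongs to cannot be told from the position. Of the 14 elements around dmrta1, 8 were closest to LOC101164594 (57.1%) and 2 to dmrta1 itself (14.3%). Upstream, 5 elements lay between 11.7 and 49.9 kb from the TSS, with scores from 9.96 to 42.0, and none lay nearer. Apart from the strongest element and one of score 96.2 and 8 peaks, 33.0 kb downstream, no element of this window had a score above 59.5. The window had 140 elements per Mb and chromosome 18 had 142.

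At IGDB10294 all elements were of moderate score. The 5 scores were 21.3, 21.5, 26.3, 33.8 and 43.4, and the strongest was at the 3.08th percentile of the strongest elements of TF genes. That rank comes from a window cut short by the scaffold, and the median score was at the 21.2nd percentile. Of the 5 elements, 3 lay within 10 kb of the TSS and 2 lay 30.7 and 31.0 kb into the gene.

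Taken by score alone, the elements around DM genes were much like those elsewhere. The 104 elements had a median score of 36.5 with quartiles of 18.5 and 63.0, all elements had a median of 30.8, and elements around any TF gene had 34.9. Of the 104, 28 came from a single peak (26.9%), beside 27.7% of all elements, and 12 were merged from 9 or more peaks (11.5%), beside 12.5%. Their median width was 255 bp, as over all elements. Given the number of merged peaks, 53 of the 104 (51.0%) had a score above the median of all elements with as many peaks. Among the 11 elements of exactly 9 peaks, 4 were above the median of 149.

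The values differed between the loci, and the elements on chromosome 9 include 21 that were closest to the neighbour kank1. On chromosome 9, 32 of 45 elements (71.1%) had a score of at least the overall median, 6 held 1 peak (13.3%) and 7 held 9 or more (15.6%), with a median score of 44.0. Around the other 4 genes, 27 of 59 (45.8%) reached the overall median score, 22 held 1 peak (37.3%) and 5 held 9 or more (8.47%), with a median score of 30.6. Elements at the TSS stood out less than at TF genes as a whole. The 7 elements within 1 kb of a DM TSS had a median score of 39.4, with a range of 25.6 to 81.8, the 26 inside a DM gene 27.8, and the 75 outside the genes and more than 1 kb from a TSS 38.1. Elements within 1 kb of any TF TSS had a median of 66.1, and 40.1% of those were merged from 9 or more peaks.

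**Figure D5:**
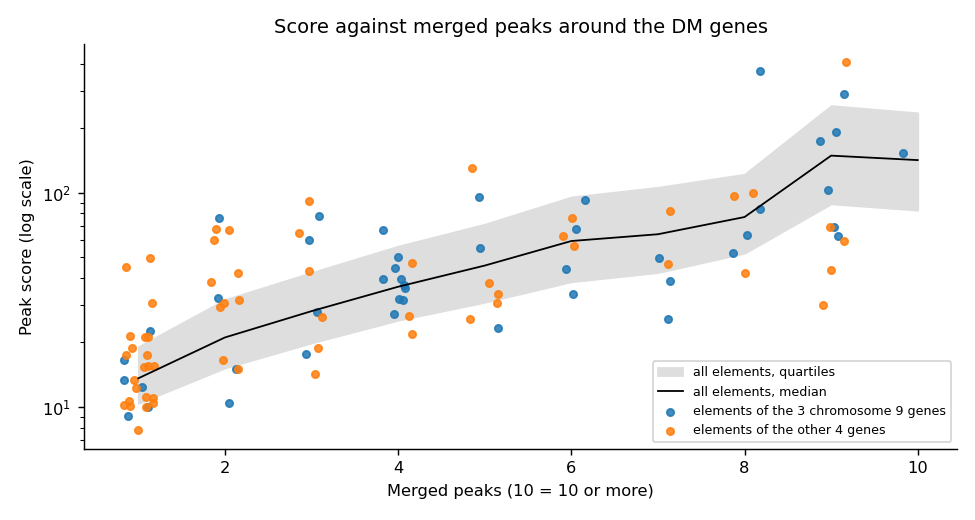
Score (y axis, log scale) against the number of merged peaks (x axis, points spread sideways for visibility) for the 45 elements around the chromosome 9 genes (blue) and the 59 around the other 4 DM genes (orange), over the median (line) and quartiles (grey) of all elements. Points lie on both sides of the line, with 53 of 104 above it, and 22 of the orange points and 6 of the blue ones are at a single peak.

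With the 50 kb window, other small families of developmental TFs had higher median counts of elements per gene. The DM median of 22 includes IGDB10294, whose window was cut short by its scaffold. The 6 AP-2 genes, regulators of epidermis and neural crest, had 17 to 50 elements with a median of 32.5, and all 6 had an element within 1 kb of the TSS. The 6 COE genes, regulators of neurons and B cells, had 28 to 58 with a median of 42, all 6 with an element there. The 4 Runt genes, regulators of blood and bone, had 11 to 32 with a median of 28.5, and 3 had such an element. The ranges overlap that of the DM genes in each case. The median score of the strongest TSS element was 42.2 in DM genes, 51.4 in AP-2, 170 in Runt and 291 in COE genes. Over whole windows DM genes were not the lowest. The median of the median scores per gene was 36.4 in DM, 30.7 in AP-2 and 26.1 in both Runt and COE genes. For the highest score per gene it was 288 in DM, 284 in AP-2, 243 in Runt and 366 in COE genes. COE genes were also long, with a median of 59.8 kb, and a median of 30.5 of their elements lay inside the gene, against 3 in DM genes.

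Genes known for sexual development and for germ cells were described in the same way, by RefSeq models. Since these carry no strand in the table used, the count of a gene is the mean over windows of 50 kb around both ends. The 6 DM genes with a RefSeq model then had 13.0 to 31.5 elements with a median of 23.5. The 43 genes found for 38 of 46 listed sex and gonad symbols had 4.5 to 52.0 with a median of 25.0, and the 19 found for 26 listed germ cell symbols had 5.0 to 30.0 with a median of 20.0. All protein-coding genes had a median of 22.5. The DM genes and both lists thus had medians within a few elements of each other and of the background.

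Within the sex and gonad list the spread was wide. ctnnb1, which encodes β-catenin, had 52.0, and six4, needed for the early gonad in mouse, had 50. The fewest were at dax1 (4.5), a nuclear receptor gene of the adrenal and gonad, nr5a1 (7.5), which encodes steroidogenic factor, and the esr2 gene on chromosome 22 (13.0), an oestrogen receptor. Among germ cell genes tdrd9, of the piRNA pathway, had 30.0, and the RNA helicase gene ddx4 and the meiotic genes dmc1 and rec8 had 28.5 each. kitlg, a ligand that supports germ cells, had 5.0, and tdrd12 and piwil2, both of the piRNA pathway, had 8.0 and 9.5. At least 1 element lay within 1 kb of a gene end in 40 of 43 sex and gonad genes (93.0%), 16 of 19 germ cell genes (84.2%) and 6 of 6 DM genes, beside 92.1% of TF genes and 82.5% of protein-coding genes. The median score of the strongest element there was 61.3, 94.0 and 71.2 in these groups, below 130 in TF genes and 116 in protein-coding genes. Either gene end counts here. The only such element of dmrta1 (score 406) and the strongest of dmrta2 (score 100) and of dmrt3a (score 33.5) lay past the 3′ end.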

How the data were processed

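ATAC-seq was measured in 18 libraries of whole embryos. Per the labels and the study's methods, the authors trimmed reads with Trimmomatic 0.36, mapped them to the medaka reference genome with Bowtie2 2.3.4.1, combined replicates, ran MACS2 2.1.2 on each stage, filtered peaks at −log q above 7 and joined the peaks of different stages. Picard, bedtools and deepTools were also listed. The deposited score is read as −log10 of the q value, and the last column as the number of merged peaks. How a merged element's score was made is not given in the sources used here. Depth per library is unknown, and whether merging favours broad or recurrent elements was not tested.

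Elements were placed by midpoint. Gene positions, strands and families came from the study's list of TFs, and neighbours from RefSeq (ASM223467v1, no strand), matched for 1518 TF genes. The build of the deposited coordinates is not named beyond the reference genome. Sequences were not used here.

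All 7 DM genes are named, and per gene the element nearest the TSS, the strongest and the one with the most peaks. Of the sex and germ cell lists, the 3 genes with the most and the 3 with the fewest elements are named, with ties, except 1 that is not reported here. Other elements and neighbours were named after their values were seen. Members and lists were chosen with earlier results of these data known. Percentiles count ties at their middle. Placement was tested on simulated elements. Python 3.11.15, NumPy 2.4.6, pandas 2.3.3 and Matplotlib 3.10.9 were used.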

Additional observations from a re-analysis of the deposited data

How the results depend on the processing

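The values depend mainly on the window. With 25 kb in place of 50 kb the median count per DM gene fell from 22 to 11 and the different elements from 104 to 63, and with 100 kb they were 52 and 198. The difference between the DM and TF medians was -3 with 50 kb and with 25 kb. It turned to 5 with 100 kb (52 against 47, with the overlapping chromosome 9 windows each counted). With elements of at least the median score alone it was 0 (median count 13, 59 different elements), and with elements closer than 500 bp merged it was -1. The median score stayed between 32.0 and 33.5 with the other windows and between 31.1 and 38.9 when each gene was left out. DM genes with an element at the TSS numbered 4 to 6 of 7 over the alternatives, beside 72.7% to 87.5% of TF genes. Those with one of 9 or more peaks there, counted under limits chosen after seeing the data, were 0 within 500 bp (43.4% of TF genes), 3 within 2 kb (52.4%) and 2 with RefSeq ends (48.0%). No paired analysis was possible because the list holds no value per replicate. Library depth, stage and the rule behind a merged score are not in the list.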

Other observations

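Scores are not unique to an element. Of all elements, 38.3% shared their score with at least 1 other element, and 28 elements carried exactly the score of the one over the dmrt2a TSS, among them an element within IGDB09824 (1187529 to 1187811 on chromosome 9, also of 4 peaks). How the list came to hold equal scores was not tested.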
